A study of Mus musculus with 83 samples.

Results

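*Mir21* and *Vmp1* are a microRNA gene and the protein-coding gene it lies in, and both are rows of a mouse small RNA-seq table. They are 2 of 32101 features and were chosen by their read levels across the time course, AGO2 and germ cell libraries, so these levels are described below without a test. *Mir21* covers chromosome 11, 86397569 to 86397660, on the minus strand (NCBIM37, 92 bases). *Vmp1* covers 86397367 to 86497338 on the same strand (99972 bases). In the GENCODE vM1 annotation the hairpin sits in exon 12, the last exon of transcript Vmp1-001, within the 3′ untranslated region. It begins 1150 bases past the stop codon and ends 202 bases before the end of the gene. Of the 8 *Vmp1* transcripts annotated, 1 has an exon over the hairpin. No further feature of the table overlaps *Vmp1*. A read of *Mir21* was counted for both rows, so the *Vmp1* row contains the *Mir21* row.

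Of the 83 libraries, 36 form a time course of mouse embryonic stem cells (ESCs, grown from an early embryo), with 3 control and 3 Dnmt1 KO libraries on each of days 1, 3, 6, 9, 11 and 25. *Dnmt1* encodes the maintenance DNA methyltransferase, and in the KO cells it was removed by Cre recombinase switched on with tamoxifen, in serum medium with LIF. The labels call the cells E14, an ESC line, whereas the study's methods describe Dnmt1 loxP/loxP ESCs of strain C57BL/6, and which of these holds was not settled. The labels do not say how the controls were treated, whether these cultures grew on feeder cells, or whether replicates came from separate cultures. If they did not, the spread between them is technical. Another 30 libraries bear the names of the day 1 to 11 libraries with an R1 suffix, the day 11 controls as WT. In 8 libraries (4 control, 4 Dnmt1 KO) the RNA was recovered with AGO2, the Argonaute protein that holds miRNAs, from cells that the study, but not the labels, places on day 9. A further 2 libraries, 1 per genotype, are labelled "none", and 7 come from primordial germ cells (PGCs) of C57BL/6J embryos (C57BL/6 in the labels) sorted by an Oct4-GFP transgene, females and males at E13.5 and E14.5, 3 of them with the suffix. Depth was 521066 to 6239009 reads in the time course and 1152390 to 25423038 reads in AGO2. The "none" libraries held 57155 reads (control) and 9830 reads (Dnmt1 KO). Small RNA reads over *Dnmt1* (18.1 to 95.02 RPM, that is reads per 1000000 reads counted, in the time course) do not measure its mRNA and cannot show whether the deletion took place.

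A miRNA is cut out of a longer transcript as a hairpin by DROSHA, and DICER then trims the hairpin to a short duplex. One strand stays in Argonaute and finds its targets by pairing through the seed near its 5′ end. miR-21 is one of the most abundant miRNAs of many differentiated tissues, of cultured fibroblasts and of tumours, and its gene is known to respond to STAT3 and AP-1. VMP1, vacuole membrane protein 1, is a protein of the endoplasmic reticulum membrane that is needed to form autophagosomes. In ESCs the miR-290 cluster is the typical abundant miRNA group. In bulk libraries such as these, a change in the share of cells of a type and a change in the RNA per cell cannot be told apart.

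The arms of the hairpin and its nearest relatives are shown so that the reads can be placed, with the seed (bases 2 to 8) in capitals. The sequences are those of RefSeq (GRCm38.p6), and the 92 bases of the *Mir21* feature in NCBIM37 were identical to the RefSeq hairpin.
miR-21a-5p: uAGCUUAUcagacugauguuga
miR-21a-3p: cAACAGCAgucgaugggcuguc
miR-21c: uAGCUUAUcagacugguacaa
miR-21b: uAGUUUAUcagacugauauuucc
In GRCm38.p6 the 5p arm lies at chr11:86584120-86584141 and the 3p arm at chr11:86584082-86584103, both on the minus strand. Among 1674 distinct mature mouse sequences, 1 other, miR-21c from chromosome 8, had the seed of miR-21a-5p, and it shared the first 15 bases. miR-21b from chromosome 3 had another seed. No other mature sequence had the seed of miR-21a-3p. Each arm of *Mir21*, and also its first 20 bases, occurred once in the NCBIM37 genome on both strands together, inside the *Mir21* feature. *Mir21b*, *Mir21c* and *Mir590*, which were listed as seed relatives, are not rows of the table used here. The table gives 1 value for the hairpin, so the arms cannot be separated.

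*Mir21* was among the abundant miRNAs of these ESCs. It took 5676 to 26852 RPM in the 36 time course libraries (median 10465), 1.07 to 4.43% of all miRNA-feature RPM, and stood at rank 4 to 20 among 1573 miRNA features. On day 1 the ranges of the genotypes met. Control libraries held 9797, 9594 and 9650 RPM, and Dnmt1 KO libraries held 10348, 9645 and 10933 RPM. The groups overlapped, and the log2 difference, Dnmt1 KO minus control on the log2(RPM + 1) scale with libraries scaled by TMM (a trimmed mean of log ratios), was -0.00 ± 0.06 (SE, n = 3 each).

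On day 3 *Mir21* was higher in Dnmt1 KO. Control libraries held 12481, 12310 and 12996 RPM, and Dnmt1 KO libraries 26852, 18820 and 18567 RPM. All KO libraries lay above all controls, and KO replicate 1 lay far above the other KO libraries. The means were 12596 ± 357 and 21413 ± 4712 RPM (SD, n = 3), a 1.70-fold ratio, and the log2 difference was 0.76 ± 0.18 (SE), or 0.58 without that library. Of 2582 features tested, 13.8% had KO libraries all above control on this day and 4.49% were called higher at an adjusted p under 0.05. These shares are printed for scale only, since *Mir21* was chosen with its values in view.

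On day 6 control libraries held 8516, 8620 and 8459 RPM of *Mir21*, and Dnmt1 KO libraries 12489, 13465 and 13532 RPM. Again no KO library reached down to a control, and the replicates of both groups were tight. The log2 difference was 0.52 ± 0.06 (SE), while the median of all features was itself 0.14 on this day. Relative to that median *Mir21* was 0.38 higher, and between 0.37 and 0.39 with the other scalings. Non-overlapping higher groups were found in 25.9% of features.

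The widest gap of the time course was on day 9. Control libraries held 14283, 10912 and 12519 RPM, and Dnmt1 KO libraries 21804, 21427 and 25132 RPM. The KO mean was 1.81 times the control mean (22788 ± 2039 against 12571 ± 1686 RPM, SD, n = 3), and the log2 difference was 0.98 ± 0.15 (SE), with no overlap (28.7% of features). *Mir21* then made up 3.89 ± 0.293% of miRNA-feature RPM in Dnmt1 KO and 2.18 ± 0.286% in control, and it ranked 6 to 7 in KO and 9 to 10 in control libraries. On day 11 the gap was smaller. Control libraries held 9289, 7983 and 7979 RPM and Dnmt1 KO libraries 10382, 11219 and 10549 RPM, a log2 difference of 0.43 ± 0.08 (SE), still without overlap (14.9% of features).

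On day 25 the order of the genotypes was the opposite. Control libraries held 9095, 7991 and 8614 RPM, and Dnmt1 KO libraries 6400, 6728 and 5676 RPM. Every KO library lay below every control, the ratio of means was 0.732, and the log2 difference was −0.34 ± 0.09 (SE). Lower, non-overlapping KO groups were found in 15.3% of features. Control libraries themselves were not level over time. *Mir21* was 0.31 ± 0.08 (log2, SE) lower in day 25 than in day 1 controls, or 0.18 lower with library totals only, and the ranges did not overlap. In this comparison 50.9% of features were called and 26.5% lay lower without overlap.

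**Figure D1:**
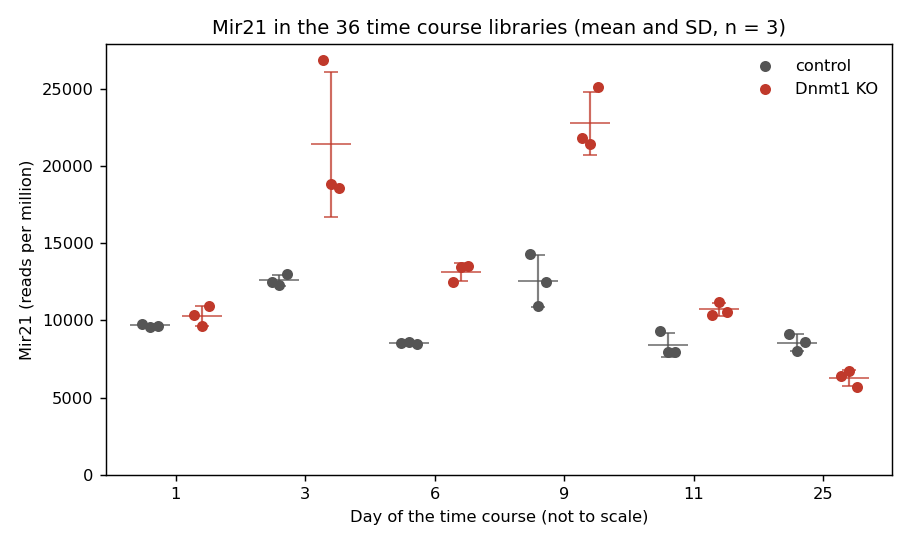
Mir21 in RPM (vertical axis) for each of the 36 time course libraries, by day (horizontal axis, not to scale) and genotype (grey control, red Dnmt1 KO). Points are libraries, and lines with bars are means and SDs of 3. The groups overlap on day 1, Dnmt1 KO lies above control on days 3 to 11, and below it on day 25 (6268 against 8567 RPM).

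Ordered by mean, the 12 groups of the time course ran from day 9 Dnmt1 KO (22788 RPM) and day 3 Dnmt1 KO (21413 RPM), whose ranges overlapped, to day 25 Dnmt1 KO (6268 RPM). A gap without overlap separated these upper groups from day 6 Dnmt1 KO (13162 RPM). From there each neighbour overlapped the next down to day 1 control (9680 RPM), through day 3 control (12596), day 9 control (12571), day 11 Dnmt1 KO (10717) and day 1 Dnmt1 KO (10309). The ranges of day 25 control (8567), day 6 control (8531) and day 11 control (8417 RPM) overlapped one another in this order, lay below day 1 control, and lay above day 25 Dnmt1 KO. Within Dnmt1 KO, *Mir21* went from day 1 to day 9 by a log2 difference of 1.41 ± 0.11, from day 9 to day 11 by −1.19 ± 0.10, and from day 11 to day 25 by −0.87 ± 0.07 (SE, n = 3 each). In control the day 1 to day 9 difference was 0.43 ± 0.11. Between days, a share over all features was computed only for day 25 against day 1 controls (26.5% lower without overlap). The other gaps between days therefore describe *Mir21* without a background.

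Scaling did not turn the sign of the *Mir21* difference on any day from 3 to 25. With library totals only it was 0.74, 0.62, 0.86, 0.35 and −0.45 on days 3, 6, 9, 11 and 25, and with median-ratio factors 0.80, 0.42, 0.94, 0.50 and −0.34. On day 1 it was 0.09 with library totals and 0.01 with median-ratio factors. Among 287 miRNA features tested, *Mir21* stood at place 34 from the highest difference on day 3, 89 on day 6, 62 on day 9, 104 on day 11 and 158 on day 25. The median miRNA difference was 0.24, 0.10, 0.30, 0.23 and −0.20 on these days. The R1-suffixed libraries are not independent samples here, as 26 of the 30 resembled their own namesake most. Their *Mir21* values were 0.955 to 1.04 times those of the namesakes.

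**Figure D2:**
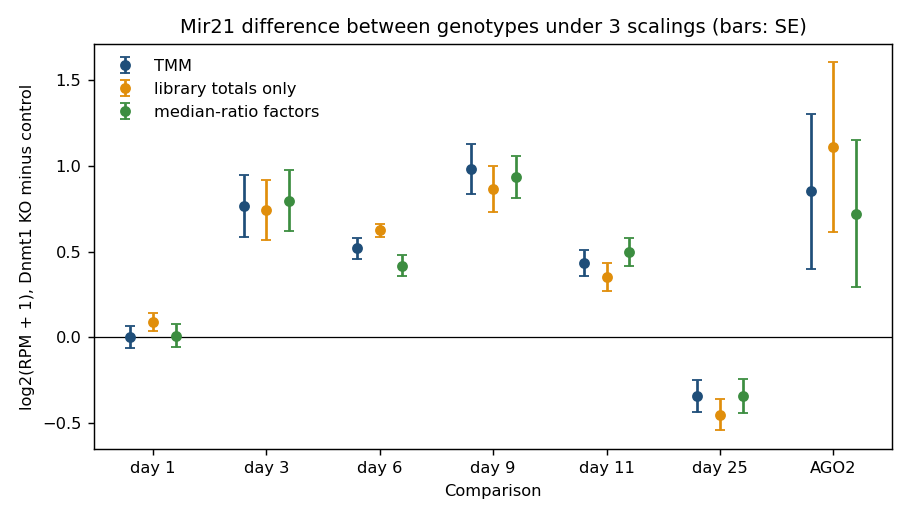
Difference in Mir21 between Dnmt1 KO and control (vertical axis, log2(RPM + 1), bars SE) for the 6 days (n = 3 each) and the AGO2 libraries (n = 4 each), under 3 ways to scale libraries (colours). The values lie above 0 on days 3 to 11 and in AGO2, below 0 on day 25, and near 0 on day 1.

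In AGO2 immunoprecipitates the RPM of *Mir21* was about 2-fold higher in Dnmt1 KO within each of 2 sets of libraries, and the sets differed from each other by as much. Genotypes of these libraries follow the sample titles, which the deposited genotype tags contradict, so the direction rests on the titles. The labels number the replicates 1 to 4 and name no sets. The split into replicates 1 and 2 and replicates 3 and 4 was made here with these values in view. Control replicates 1 to 4 held 12945, 11340, 4857 and 5618 RPM. Dnmt1 KO replicates 1 to 4 held 26074, 25485, 10434 and 12542 RPM. In both genotypes replicates 1 and 2 were high and replicates 3 and 4 low, so the groups overlapped when pooled: KO replicates 3 and 4 lay no higher than control replicate 1. The ratio of KO to control means was 2.12 in replicates 1 and 2 and 2.19 in replicates 3 and 4, with log2 differences of 0.88 and 0.82 after scaling. Over all 8 libraries the log2 difference was 0.85 ± 0.45 (SE, n = 4 each), and 1.11 with library totals only, a scaling under which the median feature stood at 0.34 in place of 0.10. Relative to the median feature *Mir21* was 0.76 and 0.77 higher. Each set may be 1 biological replicate, since the series design counts 2 biological replicates for 2 of its samples. The study itself gives n = 4 for its AGO2-bound small RNAs and does not say which kind of replicate is meant. *Mir21* ranked 8 to 18 among miRNA features in AGO2 Dnmt1 KO and 14 to 21 in AGO2 control. Of 456 features tested in AGO2, 24.8% were called higher in Dnmt1 KO, and the same share had KO libraries all above control.

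The 2 libraries labelled "none" also held *Mir21*, and their genotypes follow the titles, which the genotype tags contradict. The control library had 708 reads (12387 RPM, Wilson 95% interval 11513 to 13328) and the Dnmt1 KO library 80 reads (8138 RPM, 6544 to 10117). These intervals cover counting error only. PGCs held far less. E13.5 female PGCs had 1185 RPM (1146 to 1226), E13.5 male 1796 RPM (1748 to 1844), E14.5 female 1188 RPM (1152 to 1225) and E14.5 male 1283 RPM (1231 to 1338). There is 1 library of each kind, so no spread is known. These 4 lay below every ESC library, and *Mir21* ranked 36 to 40 among miRNA features in them. Of the PGC libraries with the suffix, E14.5 male had 1824 RPM (1753 to 1898). The E13.5 female one had 20 reads (174 RPM, 113 to 269) and the E13.5 male one 2 reads (33.2 RPM, 9.09 to 121), of 114631 and 60317 reads in all. The E13.5 libraries with the suffix do not match their namesakes (174 against 1185 RPM in females, 33.2 against 1796 RPM in males). *Mir21* was 0.278 to 0.324% of miRNA-feature RPM in the PGC libraries without the suffix. The listed ESC miRNAs (the miR-290 cluster and the miR-302 cluster, 12 features) summed to 12189 to 24377 RPM in these PGCs and to 110780 to 209785 RPM in the time course.

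**Figure D3:**
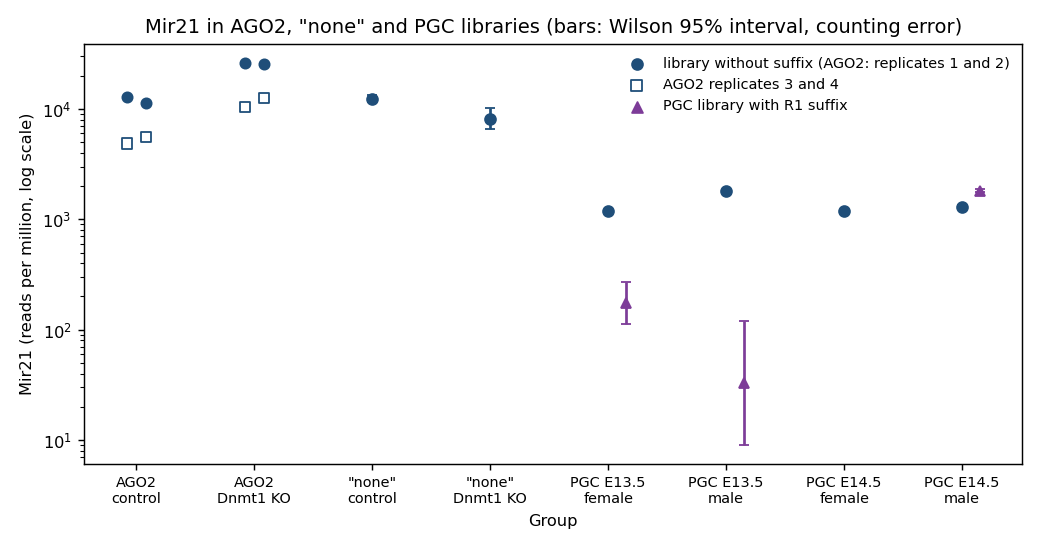
Mir21 in RPM on a log axis (vertical) in the AGO2, "none" and PGC libraries (horizontal), one point per library. Bars are Wilson 95% intervals for counting error in groups of 1 library, filled circles and open squares mark the AGO2 sets, and triangles are PGC libraries with the R1 suffix. AGO2 replicates 3 and 4 lie below replicates 1 and 2 in both genotypes, and PGCs without the suffix lie between 1185 and 1796 RPM.

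Nearly all small RNA reads counted for *Vmp1* were those of *Mir21*. Over the 36 time course libraries 1519345 of 1519850 *Vmp1* reads (99.97%) fell in the hairpin, and the share per library ran from 99.87 to 99.99%. Per kilobase, the hairpin held 3266300 times as many reads as the remainder of the gene. The *Vmp1* row therefore repeats *Mir21*: on day 3 it averaged 21418 ± 4710 RPM in Dnmt1 KO against 12599 ± 358 RPM in control (SD, n = 3), and its log2 differences, -0.00, 0.76, 0.52, 0.98, 0.43 and −0.34 from day 1 to day 25 and 0.85 in AGO2, were those of *Mir21*. Among 127 protein-coding features that hold exactly 1 miRNA feature and averaged at least 10 RPM, *Vmp1* had the fourth place by the share of reads in its miRNA, behind *Hoxd4* and *Hoxd3* (*Mir10b*) and *Tlcd2* (*Mir22*). The median share was 73.1%.

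Reads of *Vmp1* outside the hairpin were few, 1 to 36 per time course library and 505 in all. They came to 1.74 to 8.97 RPM (median 4.31), which is 0.0174 to 0.0898 RPM per kilobase. On day 6 control libraries held 2.44, 2.06 and 3.40 RPM (5 to 8 reads) and Dnmt1 KO libraries 6.33, 5.06 and 5.80 RPM (16 to 19 reads), without overlap (25.9% of features), a log2 difference of 0.83 ± 0.17 (SE, n = 3 each). On day 3 they were 3.94, 1.74 and 3.64 RPM against 3.04, 6.198 and 5.96 RPM, and on day 9 5.08, 3.53 and 3.27 RPM against 5.82, 5.82 and 4.65 RPM. Groups overlapped in RPM on each day other than 6, while on the scaled log2 values those of day 9 did not (28.7% of features). Both shares are of features with at least 10 RPM in at least 3 libraries. Reads outside the hairpin did not pass this filter, so the shares are not a background for such low values. On days 1, 3, 9, 11 and 25 the log2 differences were 0.27 ± 0.30, 0.57 ± 0.37, 0.49 ± 0.18, −0.04 ± 0.15 and 0.12 ± 0.68 (SE). Day 25 rested on 1 to 7 reads per library, so no difference could be seen at this depth. In AGO2, where *Mir21* gave 904494 reads, *Vmp1* outside the hairpin gave 7, at most 3 in any library, and no ratio is given. PGC libraries without the suffix held 5 to 37 such reads (2.88 to 13.1 RPM), and *Mir21* was 98.9 to 99.8% of their *Vmp1* reads. Reads of 20 to 24 nt over an mRNA are fragments and do not measure the mRNA itself.

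**Figure D4:**
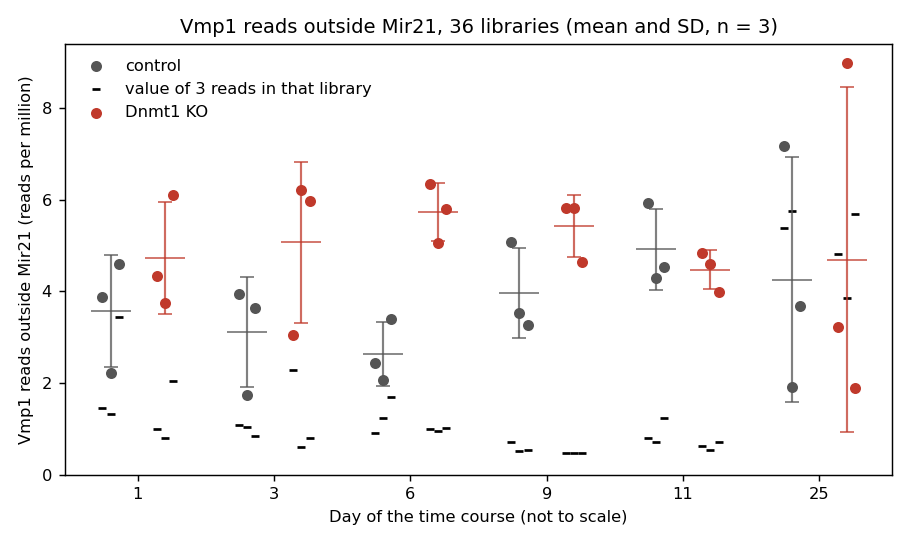
Reads of Vmp1 outside Mir21, in RPM (vertical axis), in the 36 time course libraries by day (not to scale) and genotype. Points are libraries, lines with bars are means and SDs of 3, and black dashes show what 3 reads amount to in each library. Dnmt1 KO lies above control without overlap on day 6 (5.06 to 6.33 against 2.06 to 3.40), and on day 25 most points lie at or below 3 reads.

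The neighbourhood gave no sign that could be tested. Of 10 genes listed around *Vmp1* on chromosome 11, 9 are rows of the table and 1 passed the filter of 10 RPM in 3 libraries. This was *Cltc*, which encodes the clathrin heavy chain, and it was not called on any day (log2 differences −0.22 to 0.20). The other 8, among them *Ptrh2*, *Tubd1* and *Rps6kb1*, averaged 0.458 to 6.50 RPM, and *Ca4* is not a row of the table. *Heatr6*, *Usp32* and *Appbp2* are not close neighbours: they start at 83567198, 84797944 and 85000764, and *Vmp1* starts at 86397367.

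Some other miRNAs followed *Mir21* over the 36 libraries. Among 2580 features, with a median Pearson r of 0.01 on the scaled log2 values, the miRNAs most like it were *Mir34c* (r = 0.960), *Mir31* (0.897), *Mir34b* (0.885), *Mir322* (0.874) and *Mir22* (0.846). The libraries share day and genotype, so these r describe common levels of 12 groups and carry no p. After the group means were removed, r was 0.73 for *Mir34c*, 0.33 for *Mir31*, 0.59 for *Mir34b*, 0.38 for *Mir322* and 0.68 for *Mir22*. *Mir34c*, of the p53-responsive miR-34 family, averaged 2451 ± 302 RPM in Dnmt1 KO against 1509 ± 16.4 RPM in control on day 3, and 2461 ± 70.6 against 1540 ± 204 RPM on day 9 (SD, n = 3). On day 25 its control and Dnmt1 KO groups, 1170.5 ± 142 and 1016 ± 64.4 RPM, overlapped. The likeness did not hold everywhere. On day 25, with *Mir21* at −0.34, *Mir34c*, *Mir31*, *Mir34b*, *Mir322* and *Mir22* stood at −0.09, −0.65, −0.66, 0.40 and 0.60. In AGO2, with *Mir21* at 0.85, they stood at 0.55, −0.55, 0.62, 2.73 and 0.21. The features of other classes most like *Mir21* were *2210403K04Rik* and *Tlcd2* (both 0.846), which span *Mir22* and take its reads, *mt-Tq*, the mitochondrial glutamine tRNA (0.826), and *Hoxa9* and *RP23-329P9.11* (0.824 and 0.823), which span *Mir196b*. *Vmp1* outside the hairpin reached 10 RPM in 0 of the 36 libraries and was not compared in this way.

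miRNAs typical of fibroblasts and stroma were called higher in Dnmt1 KO in 10, 8 and 9 of 13 cases on days 3, 6 and 9. Of 17 such features listed, 14 are in the table and 13 were tested. This list and those below were chosen with earlier results of these data known. Their calls and adjusted p therefore describe the members and are not an independent test. On day 3, 10 of the 13 were called higher and 0 lower (limma, adjusted p under 0.05, against 4.49% of all features called higher), with a median log2 difference of 0.59 against −0.02 over all features. They included *Mir143* (16176 ± 1231 against 10319 ± 201 RPM, log2 difference 0.67 ± 0.10, adjusted p = 2.08e-05), a miRNA of smooth muscle and fibroblasts, *Mir27a* (0.53, adjusted p = 3.74e-05) and *Mir22* (0.73, adjusted p = 0.000285). Without Dnmt1 KO replicate 1, the library that was also highest in *Mir21*, the *Mir22* difference was 0.42. On day 6, 8 of 13 were called higher (13.7% of all features), with a median of 0.43 against 0.14. *Mir143* (0.73, adjusted p = 4.34e-07), *Mir22* (0.60, adjusted p = 0.000907) and *Mir10a* (0.53, adjusted p = 0.00114) led. On day 9, 9 of 13 were called higher (12.3%), with a median of 0.69 against 0.09. *Mir143* (0.95, adjusted p = 1.14e-09), *Mir10a* (0.85, adjusted p = 6.93e-07) and *Mir10b* (0.98, adjusted p = 1.5e-06) led, the last 2 from the Hox clusters.

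Fewer members were called on days 1 and 11, and on day 25 the calls went both ways. On day 1, 0 of 13 were called by limma (3.80% of all features called in either direction), and 3 had an unadjusted p under the same threshold. On day 11, 3 were called higher (6.27%), *Mir27a* (0.37, adjusted p = 0.00221), *Mir145* (0.64, adjusted p = 0.0037) and *Mir143* (0.38, adjusted p = 0.00984). With median-ratio factors 8 were called. The *Mir143* call was lost with an adjusted p of 0.0867 without a filter, 0.0536 when control replicate 3 was left out and 0.0882 when Dnmt1 KO replicate 2 was. On that day all 13 differences were above 0 (median 0.38 against −0.05 over all features), and 11 had an unadjusted p under the threshold. On day 25, when *Mir21* was lower, 5 were called higher (18.0%) and 5 lower (17.0%). *Mir22* (0.60, adjusted p = 0.000483) and *Mir143* (0.48, adjusted p = 0.000279) were higher, as were *Mir27a* and, from at most 2 reads per library, *Mir214* and *Mir199a-2*. *Mir10b* (−1.45, adjusted p = 1.5e-10), *Mir10a* (−1.06, adjusted p = 3.54e-09) and *Mir31* (−0.65, adjusted p = 2.15e-06) were lower, together with *Mir29a* and *Mir145*. In AGO2, 1 of 9 tested was called higher (24.8% of features), *Mir143* (4054 ± 310 against 1554 ± 211 RPM, SD, n = 4, 1.13 ± 0.15, adjusted p = 0.000254). The AGO2 median was −0.02, and with library totals only it was 0.24 with 3 called higher. With the replicate number as a block 1 was called higher and 1 lower.

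The summed level of the 14 stromal features moved with *Mir21* on days 3 to 11 and against it on day 25. Control and Dnmt1 KO libraries summed to 36669 to 38761 and 36647 to 41161 RPM on day 1, 39560 to 40771 and 55302 to 82763 RPM on day 3, and 26009 to 27092.5 and 42685 to 44367 RPM on day 6. They summed to 41867 to 50011 and 64241 to 76225 RPM on day 9, and 34042 to 36426 and 40637 to 46921 RPM on day 11. On day 25 the Dnmt1 KO sums, 23098 to 25537 RPM, lay above the control sums of 18229 to 19917 RPM. *Mir22* and *Mir143* made up 63.5 to 88.8% of each sum. On day 25 *Mir22* alone averaged 20002 RPM in Dnmt1 KO and 14199 RPM in control, so the sums of that day are mostly 1 miRNA. *Mir199a-1* was at 0 reads in all 36 libraries, while *Mir199a-2* and *Mir214*, which are typical of mesenchymal cells, were read on days 1 to 11 and held at most 2 reads in any day 25 library. Day 25 controls also had less of this list than day 1 controls: 10 of 13 were called lower (28.2% of features), among them *Mir143* (951 ± 56.6 against 9691 ± 1220 RPM, −3.48 ± 0.10), *Mir214* (0.598 ± 1.04 against 140 ± 6.83 RPM) and *Mir29a* (−2.67 ± 0.10), while *Mir21* was lower by 0.31 (0.18 with library totals only). *Mir22* fell less than these 3 stromal miRNAs between the same controls, by 0.30 (from 16053 to 14199 RPM). The part of stromal cells in the *Mir21* difference was not tested.

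**Figure D5:**
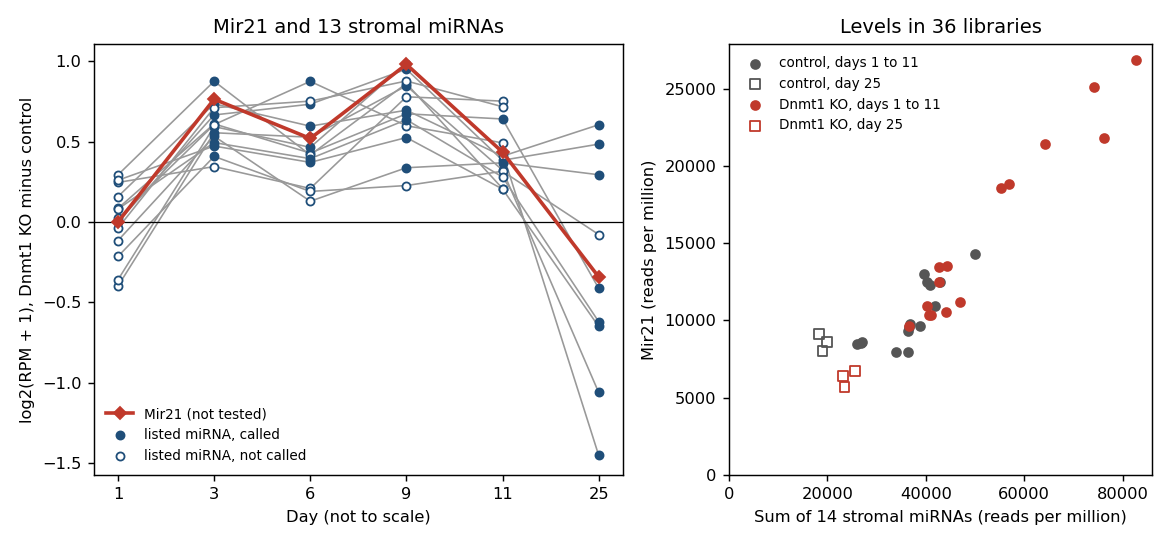
Left, log2 difference between Dnmt1 KO and control (vertical axis) by day (not to scale) for Mir21 (red diamonds, not tested) and the 13 stromal miRNAs tested (circles, filled where called), leaving out features with at most 3 reads in every library of the day. Right, Mir21 against the sum of the 14 stromal miRNAs found, both in RPM, one point per library (circles days 1 to 11, squares day 25), 2 measures that share each library's total. Mir21 and all 13 stromal miRNAs lie above 0 on days 3, 6, 9 and 11, and on day 25 Mir21 is at −0.34 while the list is split.

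Among 6 miRNAs induced by signalling through STAT3, AP-1 or NF-κB, 4 were tested. *Mir222* and *Mir221*, a pair from 1 transcript, were called higher on day 6 (0.97, adjusted p = 4.14e-07, and 0.85, adjusted p = 0.00339) and day 9 (0.78, adjusted p = 2.39e-05, and 0.76, adjusted p = 0.011), and on day 25 *Mir146* (−0.99, adjusted p = 0.00458) and *Mir155* (−0.49, adjusted p = 0.00468) were called lower. Of all features 13.7% were called higher on day 6 and 12.3% on day 9, and 17.0% were called lower on day 25. Without a filter both *Mir221* calls were lost (adjusted p = 0.0518 and 0.148), and the day 9 call also without control replicate 2 or 3 or Dnmt1 KO replicate 1 (0.0515 to 0.0561). On days 1, 3 and 11 limma called 0 of the 4 (2.87, 4.49 and 6.27% of features called higher), with 0, 3 and 2 at an unadjusted p under the threshold. The list medians were −0.08, 0.43, 0.36, 0.55, 0.36 and −0.47 from day 1 to day 25. In AGO2 1 was called lower (11.6% of features), *Mir155* (−0.67, adjusted p = 0.0436). Its adjusted p was 0.0646 with the replicate number as a block, and the call was lost under 11 of 14 alternatives.

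Of 5 blood cell miRNAs 2 were tested, and the defining erythroid *Mir451* and myeloid *Mir223* averaged 1.64 and 1.79 RPM in the time course. *Mir142*, a miRNA of blood cells, was called higher in Dnmt1 KO on day 9 (1962 ± 149 against 784 ± 55.8 RPM, 1.44 ± 0.16, adjusted p = 2.12e-09) and day 11 (1.63 ± 0.16, adjusted p = 8.67e-11) and in AGO2 (1.41 ± 0.22, adjusted p = 0.000961). On day 6 it was called at 0.51 (adjusted p = 0.0174, and 0.0576 with median-ratio factors), and on day 25 it was lower at −0.42 (adjusted p = 0.04, and 0.133 without Dnmt1 KO replicate 1). *Mir150*, of lymphocytes, was called higher on day 1 (2.87% of features; 0.57, adjusted p = 0.00983, and 0.38 with adjusted p = 0.207 without control replicate 3), day 6 (0.49, adjusted p = 0.00748), day 11 (0.89, adjusted p = 4.21e-06) and in AGO2 (1.41, adjusted p = 0.0192, and 0.13 with the sets averaged). Of all features 13.7, 12.3 and 6.27% were called higher on days 6, 9 and 11 and 24.8% in AGO2, and 17.0% were called lower on day 25. On day 1 *Mir142* went the other way (−0.41) and was not called (limma adjusted p = 0.188). On day 3 limma called 0 of the 2 (4.49% of features called higher), and on day 9 *Mir150* was not called. Between day 25 and day 1 controls *Mir150* was called higher (1.03) and *Mir142* lower (−1.84), with 50.9% of features called in either direction. The part of blood cells in the *Mir21* difference was not tested.

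All 12 listed miRNAs that define ESCs were tested. On day 1, *Mir291b* was called higher (2.87% of features; 0.39, adjusted p = 0.0259, and 0.301 without control replicate 3). On day 3, *Mir291b* was higher (0.36, adjusted p = 0.0278) and *Mir302b* (−0.66, adjusted p = 0.00434) and *Mir367* (−0.79, adjusted p = 0.0409) were lower, 4.49% of features being called higher and 1.74% lower. Without Dnmt1 KO replicate 1 the *Mir291b* difference was 0.23 (adjusted p = 0.339), and without Dnmt1 KO replicate 2 the *Mir367* difference was −0.52 (adjusted p = 0.23). On day 11 limma called 0 of 12 (6.27% of features called higher), and 0 had an unadjusted p under the threshold. In AGO2, *Mir293* (0.44, adjusted p = 0.0153) and *Mir292* (0.46, adjusted p = 0.0233) were called higher (24.8% of features) and *Mir295* lower (11.6%; −0.48, adjusted p = 0.0322). With the AGO2 sets averaged none of these 3 was called (adjusted p 0.199, 0.221 and 0.258), and with library totals only the *Mir295* difference was −0.22 (adjusted p = 0.306). On day 6, 5 members were called lower (9.33% of features) and 2 higher (13.7%). The lower ones were all of the miR-302 cluster, led by *Mir302b* (24.01 ± 3.42 against 96.3 ± 7.03 RPM, −2.07 ± 0.15, adjusted p = 2.93e-14). Day 9 gave 5 lower (6.12%), with *Mir302b* at −1.52 (adjusted p = 1.54e-10), and 2 higher (12.3%). On days 6 and 9 the higher members were *Mir290* (0.40, adjusted p = 0.00133, and 0.37, adjusted p = 0.00337) and *Mir293* (0.33, adjusted p = 0.0226, and 0.36, adjusted p = 0.0137), both of the miR-290 cluster. The *Mir293* call was lost under 6 of 11 alternatives on day 6 (adjusted p = 0.133 with median-ratio factors) and 4 of 11 on day 9 (0.099 with library totals only). On day 25, 9 were called lower (17.0%), with *Mir302b* at −1.04 (adjusted p = 7.83e-07), *Mir291a* at −0.56 (adjusted p = 3.84e-06) and *Mir302a* at −0.86 (adjusted p = 3.28e-05). The whole ESC list summed to 136659 to 141633 RPM in day 25 Dnmt1 KO and 176156 to 209785 RPM in day 25 control. On day 1 it summed to 128576 to 133139 RPM in Dnmt1 KO and 116832 to 123978 RPM in control. The controls thus differed between these days by more than the KO libraries did. Between day 25 and day 1 controls 7 of the 12 were called higher and 1 lower (50.9% of all features called in either direction).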

How the data were processed

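Reads were trimmed by the authors (Trim Galore 0.3.5), those 20 to 24 nt long were selected, Bowtie2 2.2.9 aligned them against NCBIM37, and SeqMonk counted overlaps per feature. The deposited values are RPKM per the file's own units. RPM is RPKM times the feature's span in kilobases. Low RPM values of each library were whole multiples of 1 step (100% within 5% of the step), which gave its total and the reads. Whether strand was used is not given in the sources used here. In R1-suffixed time course libraries 95.4 to 96.9% of nonzero values were even numbers of reads, against 39.0 to 46.2% in their namesakes, and they served as an alternative. Groups follow the sample titles. The genotype tags contradict these titles in the AGO2 libraries, the "none" libraries and most R1-suffixed time course libraries.

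Listed features were tested with limma 3.58.1 (R 4.3.3) on log2(RPM + 1) after own TMM scaling (30% and 5% trimmed), for features with at least 10 RPM in at least 3 libraries, 2582 in the time course (1 fit) and 456 in AGO2 (own fit), two-sided, with Benjamini-Hochberg adjustment over all features and a threshold of 0.05. Folds on this scale understate changes of low features. No count model was run, as the values are not counts. Fits were tested on simulated data. *Mir21* and *Vmp1* got differences of group means with an SE, and no test. The members and lists were chosen with earlier results of these data known. Named were the members of each list called in each direction, up to 3 by adjusted p, and the 5 miRNAs and 5 other features most like *Mir21*. Deviations of the 4 same-numbered AGO2 pairs correlated at 0.19 to 0.39, but only 1 pair correlated best with its own number. Pairing by replicate number is thus not settled in AGO2, and the numbers of the time course do not pair its libraries. Alternatives were library totals, median-ratio factors, a pseudocount of 0.5, no filter, leaving out each library, a replicate block, the R1-suffixed libraries and averaged AGO2 sets.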

Additional observations from a re-analysis of the deposited data

Results flagged for a closer look

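*Mir21* was lower in every Dnmt1 KO than in every control library on day 25 (log2 difference −0.34), whereas on days 3, 6, 9 and 11 it was higher in every Dnmt1 KO library. The *Vmp1* row, which holds the same reads, gave −0.34 on day 25 as well. Of all features, 13.8, 25.9, 28.7 and 14.9% lay higher without overlap on days 3, 6, 9 and 11, and 15.3% lay lower on day 25. The median miRNA difference also changed sign, at 0.24, 0.10, 0.30 and 0.23 on days 3 to 11 and −0.20 on day 25. *Mir21* stood at place 158 of 287 miRNA features on day 25. The difference in *Mir21* between the days was not tested.

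The libraries labelled "none" enter no comparison, yet held 708 reads of *Mir21* in the control and 80 in the Dnmt1 KO library, above the 3 reads taken as the limit for a count of 0.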

How the results depend on the processing

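Leaving out 1 library at a time, the *Mir21* difference stayed within −0.06 to 0.04 on day 1, 0.58 to 0.85 on day 3, 0.47 to 0.55 on day 6, 0.88 to 1.08 on day 9, 0.39 to 0.50 on day 11, −0.40 to −0.27 on day 25 and 0.65 to 1.09 in AGO2. By more than the replicate SD, *Mir21* and *Vmp1* moved to 0.089 on day 1 and to 0.62 on day 6 with library totals, and to 0.42 on day 6 with median-ratio factors. *Vmp1* outside the hairpin moved to 1.40 on day 1 and 0.56 on day 11 in the R1-suffixed libraries. Listed features called numbered 2, 13, 19, 19, 5 and 22 from day 1 to day 25, 7 in AGO2 and 24 between control days 25 and 1. Without a filter 0 were called on day 1, 7 on day 3 and 12 on day 6. With median-ratio factors 11 were called on day 11, and with averaged AGO2 sets 2 in AGO2. Leaving out 1 library gave 0 to 4 on day 1, 8 to 13 on day 3 and 3 to 7 in AGO2. These counts fell most on day 1 without control replicate 3 or Dnmt1 KO replicate 1 (0 each), on day 3 without control replicate 1 (8), and in AGO2 without Dnmt1 KO replicate 2 (3) or control replicate 1, 3 or 4 (4 each). The cause was not tested. In the time course 0 of 18 same-numbered pairs correlated above 0.1 and 4 correlated best with their own number, and the replicate block gave 11 calls on day 11. In AGO2 the block gave 8. Of 68 named calls 48 held under every alternative run, and no alternative turned a sign.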
